A study of Mus musculus with 8 samples.

Results

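The report concerns 44 transcribed loci whose level differed between diabetic and nondiabetic mice by a large margin, and in the same direction, in Gr-1+ cells of both bone marrow and skin wounds. They were taken from 39330 assembled loci. The 18280 loci considered carried a gene name, had a successful estimate in all libraries, spanned at least 200 bases and reached 1 FPKM, a level scaled to transcript length and to the size of the library, in at least 2 libraries. The loci were chosen by the mean of log2(FPKM + 1), which had to differ by 1.5 or more between the genotypes in marrow and in wound with the same sign. Loci of the major histocompatibility region of chromosome 17 were left out, as were Mx1, Oas1a, Oas2, Xaf1, Apobec3, Acvrl1, the stefins and Mcpt1, which removed 12 loci by region and 8 by name from the 64 that met the size. The 44 loci carry 40 names, with 23 loci higher and 21 lower in the diabetic mice. These genotype differences chose the loci, so they are described below and not tested.

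Gr-1 is an antigen carried by Ly6G and Ly6C, surface proteins of neutrophils and inflammatory monocytes, which are made in the marrow and enter a wound early. The nondiabetic mice were heterozygous (Lepr +/-) and the diabetic mice homozygous (Lepr -/-) for disruption of the leptin receptor gene, with C57BL/6 given as the strain for both. All mice, of both sexes with the sexes matched, were 8 to 16 weeks old and had received 2 excisional wounds of 8 mm on the back, so the marrow also came from wounded animals. On day 3 the cells were taken with magnetic beads, from marrow and from digested wounds cut with a border of skin. RNA from 5 mice was pooled for a library, giving 2 pools for nondiabetic marrow, diabetic marrow, nondiabetic wound and diabetic wound.

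Leptin is a hormone of fat tissue that curbs appetite, and mice without its receptor become obese and diabetic. In pooled samples of many cells, fewer cells of a type and less RNA per cell cannot be told apart. The receptor gene Lepr, which defines the groups, was listed at 0.477 and 0.689 FPKM in the nondiabetic marrow pools and at 0.039 and 0.186 in the diabetic ones, and at 4.95 and 4.66 in nondiabetic wound against 1.37 and 1.22 in diabetic wound. Its pools did not overlap between the genotypes in either tissue.

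Across the libraries, the sum of FPKM ranged from 1544804 to 2788448, and 13658 to 14360 of the 18280 loci reached 1 FPKM. Summed over the markers of a cell type with an estimate, the neutrophil list (11 of 14 genes) lay at 25097 to 26018 FPKM in nondiabetic marrow and 20166 to 20342 in diabetic marrow, and at 640 to 728 and 503 to 510 in the wounds. Erythroid markers (7 of 11 genes) lay at 6269 to 6302 in nondiabetic and 14071 to 15109 in diabetic marrow, where 4 of 7 tested loci rose and 1 fell, with a median difference of 0.15. Markers of monocytes and macrophages (10 of 13) lay at 2957 to 3067 in nondiabetic and 1801 to 1836 in diabetic marrow, where 6 of 10 tested loci rose and 4 fell. Over all loci considered, 17.3% rose and 24.2% fell in marrow by the same test, and 23.8% rose and 22.4% fell in wound. Markers of eosinophils, basophils and mast cells (13 of 14) lay at 2533 to 2773 in nondiabetic and 1663 to 1695 in diabetic marrow, and at 144 to 148 and 254 to 257 in the wounds. Of these 13 loci, 2 rose and 6 fell in diabetic marrow, and 5 rose and 3 fell in diabetic wound. Their median differences were 0.01 and 0.02. Keratinocyte markers (12 of 12) lay at 314 to 333 in nondiabetic and 718 to 738 in diabetic wound. The part of these cell types in the differences below was not tested.

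In the diabetic mice the 23 higher loci had a median difference of 2.49 in marrow and 2.39 in wound on the log2(FPKM + 1) scale, and the 21 lower loci medians of -2.34 and -1.81, while the medians over all 18280 loci were -0.03 and 0.00. Before any was left out, the size was met by 0.208% of the loci considered as higher and by 0.142% as lower. The pools of the genotypes did not overlap in either tissue at 40 of the 44, which the rule did not require but which large differences favour; over all loci considered, 8.21% were so separated as higher and 12.5% as lower, 20.7% together. The working name of the group speaks of switches, but at only 15 of the 44 was every library of one genotype under 1 FPKM and every library of the other at 1 or more, against 0.377% of all loci considered. Of these, 6 were present in the diabetic mice and 9 in the nondiabetic mice. The other 29 did not meet this, and at 4 of the 44 the pools of the genotypes overlapped in a tissue. The difference was larger in marrow at 25 loci and in wound at 19.

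**Figure D1:**
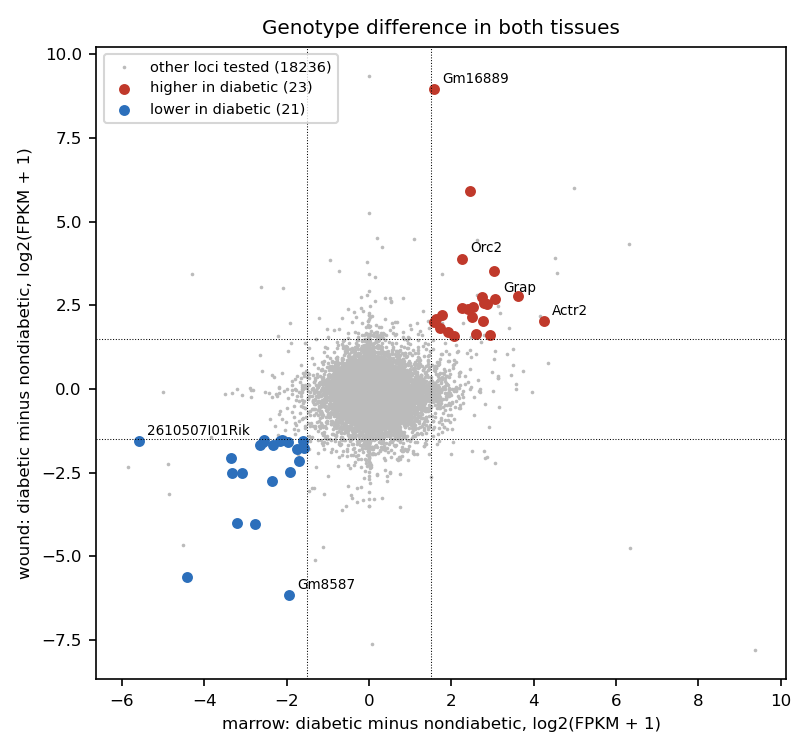
The diabetic minus nondiabetic difference in marrow (horizontal axis) and in wound (vertical axis), both as mean log2(FPKM + 1), for the 23 higher loci (red), the 21 lower loci (blue) and the other loci considered (grey). Dotted lines mark 1.5; grey points beyond them in both tissues with the same sign are the 20 loci left out by position or name.

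Just inside the size of 1.5 lay Ifi27l2a, Ighv11-2 and Ighg2c, whose smaller differences were 1.53, 1.53 and 1.54 in size. Just outside lay Eps15 at 1.46, Gm16194 at 1.46 and Scd1 at 1.45. The edge is thus crossed in small steps.

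The 44 loci differ in what was read. The deposited table runs along each chromosome in 3 passes, and among its uniquely named rows 95.4% in the first pass lie on the plus strand of the annotation and 94.8% in the second on the minus strand, while the third is split as 50.8% and 49.2%. The third pass was therefore read as loci without a resolved strand. By this reading 20 of the 44 loci (45.5%) had no strand, against 28.3% of all loci considered. Of the 24 with a strand, 4 are immunoglobulin loci. In 12 of the 44 (27.3%) the span holds no base of an exon of the gene whose name the row carries, against 5.75% of all loci considered, and 10 of those 12 had no strand. A span is that of a whole assembled bundle, and 19 of the 44 (43.2%) shared theirs with another row, against 47.95% of all loci considered, so such a locus cannot be placed more closely.

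The sequences of short loci inside introns or between genes were compared with the rest of the genome. All are read from the NCBIM37 genome, the assembly called mm9 that the submitters' processing notes name. Exons were sought only for loci of up to 3000 bases with no more than 5 matches elsewhere in the genome. Among the higher ones of these, 4 without strand matched an exon of a protein-coding gene. The locus called Gm16581 (chr1:55185291-55185646, 356 bases) matched Srrm2, a gene of the splicing machinery, at chr17:23961357-23961704 with 97.1% identity over 98.0% of its length. The locus inside an intron of Fshr (chr17:89491060-89491612) matched Rcc2, a regulator of chromosome condensation and cell spreading, at chr4:140278386-140278938 with 96.4% identity over its full length. Between genes, the Gm5067 locus (chr5:26334612-26334824) matched a stretch outside any exon at chr5:26401766-26401978 most closely, with 97.7% identity over its full length, and then Rrs1, a ribosome assembly factor, at chr1:9536671-9536882 with 96.2% identity over 99.5%. In an intron of Sft2d1 (chr17:8554777-8555185) the match was to Gm5590 at chr7:46701021-46701419, with 87.0% identity over 97.1%, and to Fam32a at chr8:74746079-74746340, with 91.2% identity over 62.6%. For the closest match of each to an exon, the window of 30 bases with the most differing bases is shown, with those bases in capitals.
Gm16581 locus, chr1:55185516-55185545, plus strand: cctgctgTaccccctGacaaggttgtgagA
Srrm2 exon, chr17:23961581-23961610, plus strand: cctgctgCaccccctTacaaggttgtgagG
Fshr intron locus, chr17:89491122-89491151, plus strand: tgtctgtctcCgccagtgcAgtggcctgcC
Rcc2 exon, chr4:140278448-140278477, plus strand: tgtctgtctcGgccagtgcCgtggcctgcT
Gm5067 locus, chr5:26334615-26334644, plus strand: TgccccaaggtgggaagaggaggaagtagT
Rrs1 exon, chr1:9536674-9536703, plus strand: CgccccaaggtgggaagaggaggaagtagC
Sft2d1 intron locus, chr17:8554917-8554946, plus strand: gagggaCAAaacacTgAcaAtctAgccttT
Gm5590 exon, chr7:46701148-46701177, plus strand: gagggaAGCaacacAgCcaGtctGgccttC
Even in these windows the pairs differed at 3, 3, 2 and 8 of 30 bases. Over the whole matched stretch, 9 aligned bases differed for Gm16581 and Srrm2, 16 for Fshr and Rcc2, 8 for Gm5067 and Rrs1, and 48 for Sft2d1 and Gm5590.

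Some other intronic loci had no such partner. The locus inside Glp1r, the receptor of the gut hormone GLP-1, and the locus inside Zfp786, a zinc finger gene, matched no other place at 85% identity over 50% of their length. Their first 200 bases, in which no exon is annotated, are given on the plus strand; no base is singled out, so none is in capitals.
Glp1r intron locus, chr17:31058515-31058714: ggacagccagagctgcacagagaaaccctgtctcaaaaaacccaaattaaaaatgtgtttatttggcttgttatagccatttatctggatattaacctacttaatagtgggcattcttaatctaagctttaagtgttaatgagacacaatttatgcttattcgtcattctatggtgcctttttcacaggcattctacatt
Zfp786 intron locus, chr6:47779511-47779710: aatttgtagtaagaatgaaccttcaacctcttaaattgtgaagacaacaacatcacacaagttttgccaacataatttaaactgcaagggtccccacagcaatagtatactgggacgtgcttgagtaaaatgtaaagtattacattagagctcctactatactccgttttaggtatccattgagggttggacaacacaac
Their GC content was 35.5% and 37.5%.

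A copy elsewhere was common among the short loci. Of 15 loci up to 3000 bases long, 8 (53.3%) had at least 1 other place in the genome with 90% identity over 80% of the length, against 332 (8.93%) of 3718 other loci considered in that size range. Among those without strand, 6 of 10 loci had one, against 11.5% of 815. The short Tmem181b-ps locus had 165 other places, Gm16889 had 77 and Gm14556 had 6. Each of the Camk2b intronic loci had 1 at this threshold, and 50 and 47 at 85% identity over 50% of the length. Whether the places matched by these Tmem181b-ps, Gm16889, Gm14556 and Camk2b loci lie in exons was not examined. How the aligner shared reads among such places is not given in the sources used here.

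The 4 matched loci were higher in the diabetic mice of both tissues and lay between 0 and 2.46 FPKM in the nondiabetic pools. Gm16581 was listed at 0.344 and 0.345 FPKM in nondiabetic marrow, 9.07 and 8.55 in diabetic marrow, 1.37 and 0.839 in nondiabetic wound, and 10.5 and 12.03 in diabetic wound. Fshr was listed at 0.315 and 0.519, 6.58 and 7.67, 0.347 and 0.411, and 6.78 and 6.38, by group in that order. Gm5067 was at 0 in both nondiabetic marrow pools, at 9.03 and 5.62 in diabetic marrow, at 1.51 and 2.46 in nondiabetic wound, and at 31.0 and 35.3 in diabetic wound. All diabetic pools of these 3 loci stood above all nondiabetic ones. Fshr encodes the receptor of follicle-stimulating hormone, but since the locus lies in an intron without a resolved strand, its level is not that of the receptor's messenger RNA. Sft2d1, named for a Golgi transport protein, was at 1.43 and 0.967 in nondiabetic marrow, 27.8 and 23.7 in diabetic marrow, 0.608 and 0.193 in nondiabetic wound, and 9.59 and 7.44 in diabetic wound.

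The matched genes differed less between the genotypes than the loci, which the choice of the loci for large differences favours. Their differences were not used to choose anything and were tested in limma over all 18280 loci, with Benjamini-Hochberg adjustment; at a threshold of 0.05, 41.4% of all loci were called in marrow and 46.2% in wound. Srrm2 rose in diabetic marrow by 0.35 (SE 0.046, adjusted p = 0.00249) and fell in diabetic wound by 0.59 (adjusted p = 3.24e-04) on the log2(FPKM + 1) scale, with 39.6 ± 2.15 FPKM in nondiabetic and 50.8 ± 0.0902 in diabetic marrow (mean ± SD, n = 2). The strongest Rcc2 locus fell in diabetic marrow by 0.42 (adjusted p = 0.0441) and differed by -0.29 in wound (adjusted p = 0.109). The Rcc2 call was lost without any 1 of the 4 marrow pools (adjusted p from 0.0904 to 0.174), and under 4 other settings of filter, scaling and trend (0.0516 to 0.114). Rrs1 differed by -0.70 in marrow (adjusted p = 0.150) and 0.34 in wound (adjusted p = 0.456), and without nondiabetic marrow replicate 2 the Rrs1 value in marrow was -1.14 (adjusted p = 0.0364). Gm5590 rose by 0.21 in diabetic marrow (adjusted p = 0.0183) and by 0.19 in diabetic wound (adjusted p = 0.0239), but the Gm5590 call in marrow was lost without any 1 of the 4 marrow pools, and that in wound without either nondiabetic wound pool or without diabetic wound replicate 2 (adjusted p from 0.0521 to 0.105). Fam32a fell by 0.33 in marrow (adjusted p = 0.00373) and by 0.62 in wound (adjusted p = 3.29e-04). The rows tested for Rcc2 and Rrs1 cover a part of the gene other than the matched stretch.

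**Figure D2:**
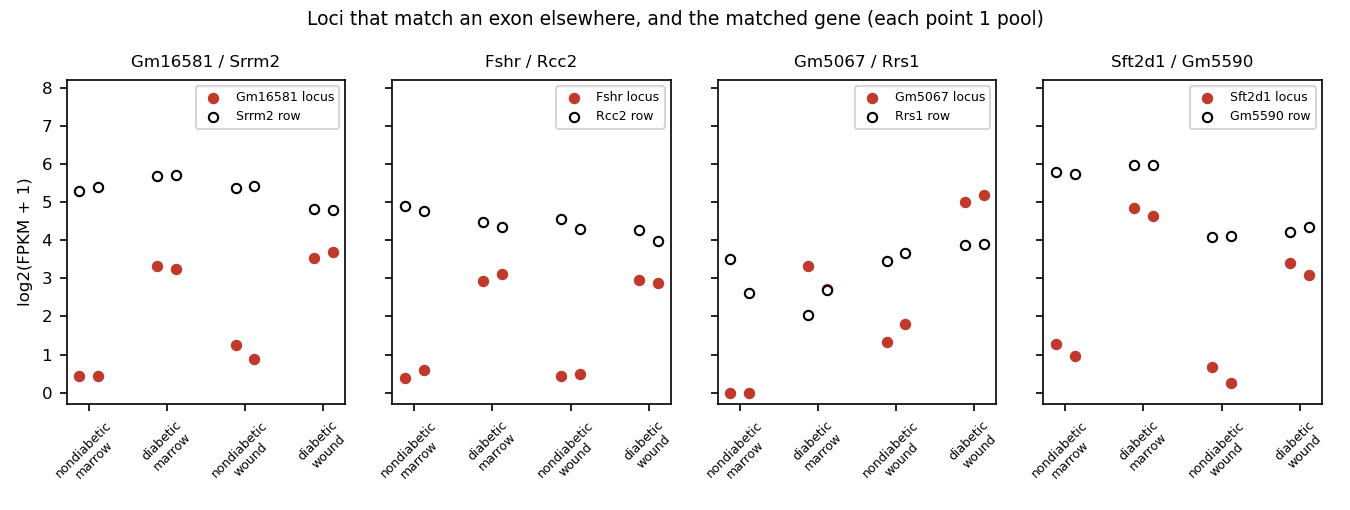
Level of 4 loci (red) and of the strongest row of the gene whose exon each matches (open circles), as log2(FPKM + 1) on the vertical axis, in the 4 groups with 1 point for each pool. The loci, which were chosen for this, stand higher in all diabetic pools, while the matched genes differ less between the genotypes.

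The remaining loci without an exon were of both directions. Glp1r was listed at 0.119 and 0.180 in nondiabetic marrow, 3.70 and 3.88 in diabetic marrow, 0.207 and 0.298 in nondiabetic wound, and 2.98 and 2.59 in diabetic wound. A second row of Glp1r, just upstream, differed by 1.57 in marrow and 0.63 in wound. Zfp786 was at 0 in both nondiabetic marrow pools, at 2.78 and 1.32 in diabetic marrow, at 0.406 and 0.459 in nondiabetic wound, and at 3.70 and 6.09 in diabetic wound. Both thus appeared with the diabetic genotype at low levels. E230016K23Rik, a noncoding gene, was read on the strand opposite its annotation, at 0.102 to 0.506 FPKM in the 4 nondiabetic pools and 5.06 to 5.75 in the 4 diabetic pools. A neighbouring row named jointly for it and for the chemokine gene Ccl6, at a mean of 167 FPKM, differed by 0.17 in marrow and 0.46 in wound.

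In the other direction, the loci in introns of Camk2b, a calcium- and calmodulin-dependent kinase, were present in nondiabetic mice. The first (chr11:5910120-5911571) was at 9.47 and 9.16 FPKM in nondiabetic marrow, 0.198 and 0.243 in diabetic marrow, 5.67 and 5.41 in nondiabetic wound, and 0.130 and 0.140 in diabetic wound. The second (chr11:5908717-5909932), 188 bases away, was at 6.53 and 6.21, 0.879 and 0.996, 5.62 and 5.58, and 0.196 and 0.161. Both were under 1 FPKM in all diabetic pools. Further along chromosome 11, 93945 bases away, lies the Nudcd3 locus without strand, listed at 1.93 and 3.69 in nondiabetic marrow, 0 and 0.207 in diabetic marrow, 2.16 and 2.87 in nondiabetic wound, and 0 in both diabetic wound pools. Nudcd3 encodes a dynein co-chaperone, and its row on the annotated strand differed by 0.19 in marrow and 0.67 in wound, in the other direction. Gm17627, inside a noncoding gene on chromosome 5, was at 6.74 and 9.52, 0.470 and 0.186, 20.2 and 18.3, and 0.379 and 0.114 FPKM, with the diabetic pools lower in both tissues.

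Several lower loci had no strand and lay within genes whose main row differed less, which the choice of the loci for large differences favours. Laptm5, a lysosomal membrane protein of blood cells, gave 2 of them. One was at 75.7 and 132 FPKM in nondiabetic marrow, 4.91 and 2.71 in diabetic marrow, 112 and 127 in nondiabetic wound, and 1.48 and 1.45 in diabetic wound. The other was at 24.1 and 37.2, 3.47 and 1.54, 35.0 and 41.8, and 1.54 and 1.37. The row on the annotated strand was at 489 and 477, 345 and 353, 248 and 256, and 135 and 134, a difference of -0.47 in marrow and -0.90 in wound against -4.43 and -5.61 for the first locus without strand. Taok3, a protein kinase, showed the same arrangement, with 8.16 and 6.02, 0.344 and 0.204, 2.76 and 3.12, and 0.521 and 0 for the locus, and -0.07 and -0.50 as the differences of its main row.

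Eps15l1, a protein of clathrin-mediated endocytosis, also gave 2 loci, which differed by -2.34 and -1.96 in marrow and by -2.74 and -1.58 in wound. Its main row differed by -0.15 and -0.20. Csf2rb2, the beta subunit of the mouse interleukin 3 receptor, was listed for the locus at 7.15 and 7.47 in nondiabetic marrow, 0.541 and 3.21 in diabetic marrow, 34.3 and 45.5 in nondiabetic wound, and 6.54 and 9.86 in diabetic wound. Its main row differed by -0.62 in marrow and -0.15 in wound. The other Csf2rb2 rows without strand on this span differed by 0.15 to 0.59 in marrow and by -0.22 to -2.43 in wound. Among the rows without strand, the fall in marrow was thus seen in the named locus alone. In these genes the difference of the locus without strand is thus not that of the main row.

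The same was seen among the higher loci at Orc2 and Actr2. The row named for Orc2, a subunit of the origin recognition complex, was at 2.67 and 1.40 FPKM in nondiabetic marrow, 11.5 and 14.96 in diabetic marrow, 21.0 and 22.0 in nondiabetic wound, and 338 and 330 in diabetic wound. On the annotated strand, the Orc2 row was at 2.34 to 3.55 FPKM in all 8 libraries, and the span also overlaps exons of Nif3l1. Actr2, which encodes the ARP2 subunit of the complex that nucleates branched actin, had a row over most of the gene at 1.39 and 2.19 in nondiabetic marrow, 49.5 and 53.4 in diabetic marrow, 1.33 and 2.39 in nondiabetic wound, and 11.1 and 9.75 in diabetic wound. A row of 234 bases at its first exon was at 366 and 383, 434 and 446, 89.6 and 103, and 102 and 99.9. The gene-wide row differed by 4.25 in marrow and 2.02 in wound, and the row at the first exon by 0.23 and 0.07. Slc22a4, a transporter of ergothioneine and organic cations, differed in this. The other 4 rows of its name, on the same span, were higher, by 0.54 to 1.44 in marrow and 1.75 to 2.59 in wound. The Slc22a4 locus was at 1.06 to 2.38 FPKM in the nondiabetic pools and 7.08 to 9.76 in the diabetic pools. In all, 5 other rows shared its span, which also holds 3645 exon bases of Slc22a21 against 2553 of Slc22a4. Which of these genes the locus without strand reads cannot be told apart.

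**Figure D3:**
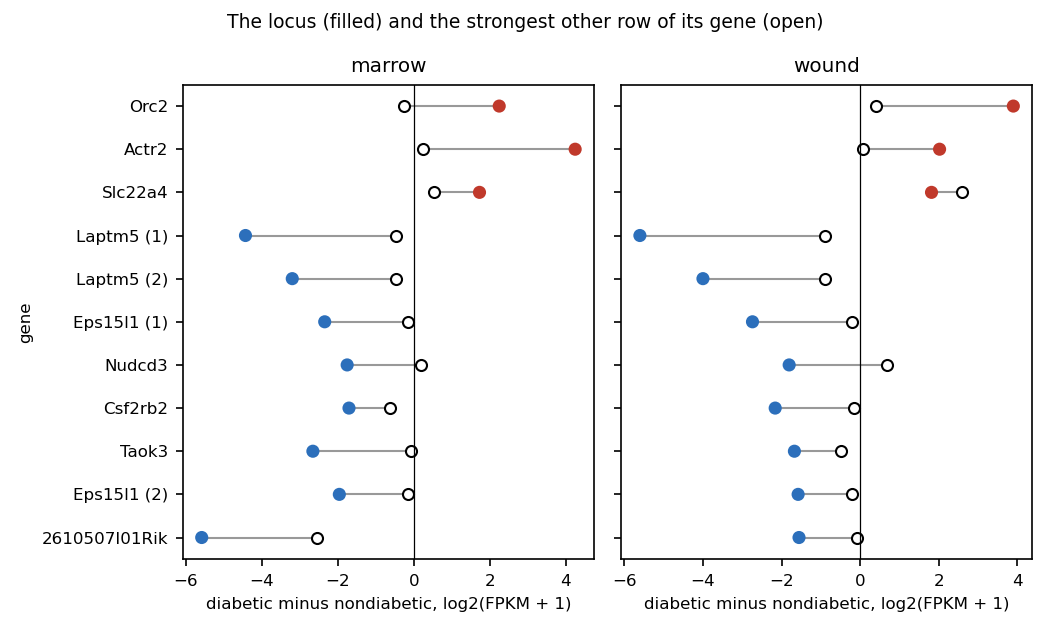
Diabetic minus nondiabetic difference of mean log2(FPKM + 1) in marrow (left) and wound (right) for loci of 9 genes (filled; red higher, blue lower) and the strongest other row of the same gene (open). At Actr2 the open point lies at 0.23 and 0.07, at Slc22a4 at 0.54 and 2.59.

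A further group was read over exons on the strand of the named gene. Grap, an adaptor protein of the GRB2 family that binds phosphotyrosine in blood cells, was at 2.15 and 2.48 FPKM in nondiabetic marrow, 26.5 and 26.7 in diabetic marrow, 2.02 and 2.36 in nondiabetic wound, and 19.7 and 19.5 in diabetic wound. The difference was 3.06 in marrow and 2.70 in wound. Aig1, a membrane hydrolase of fatty acid esters, was at 1.57 and 2.06, 13.3 and 11.7, 9.61 and 8.196, and 52.3 and 52.0. Hebp1, a heme-binding protein, was at 6.23 and 6.56, 24.8 and 23.5, 6.62 and 7.58, and 37.5 and 35.7. In all 3 the diabetic pools stood above every nondiabetic pool, with the pools of a group close together.

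Cd36, the scavenger receptor that takes up fatty acids and oxidised lipoprotein, was at 4.58 and 4.36 FPKM in nondiabetic marrow, 16.2 and 15.3 in diabetic marrow, 63.5 and 64.7 in nondiabetic wound, and 280 and 270 in diabetic wound. Its diabetic marrow pools stayed below the nondiabetic wound pools. Of 20 other loci from a list of peroxisome proliferator-activated receptor and fatty acid genes, 3 rose and 11 fell in diabetic marrow, and 8 rose and 3 fell in diabetic wound, with medians of -0.20 and 0.08. Over all loci, 17.3% rose and 24.2% fell in marrow, and 23.8% rose and 22.4% fell in wound. Fabp4, a fatty acid carrier, rose by 0.99 in marrow (adjusted p = 9.76e-04) and by 1.92 in wound (adjusted p = 8.33e-05). Lipoprotein lipase (Lpl) rose by 1.83 in marrow (adjusted p = 9.27e-06) and fell by 1.13 in wound (adjusted p = 3.45e-05). Markers of muscle and fat (5 of 9 genes) summed to 10.6 and 11.4 FPKM in the marrow pools of nondiabetic mice and to 34.6 and 35.2 in those of diabetic mice, and to 92.5 and 97.0 against 255 and 246 in wound. Of 4 tested loci of that list, 2 rose and none fell in diabetic marrow, and 2 rose and 1 fell in diabetic wound, Fabp4 and Lpl being among the 4. Endothelial markers (9 of 9), of cells that also make Cd36, lay at 50.7 and 52.1 in nondiabetic and 98.8 and 98.2 in diabetic wound. In marrow they lay at 13.4 and 14.5 in nondiabetic and at 11.1 and 12.2 in diabetic mice. Of the 9 endothelial loci, 6 rose and none fell in diabetic wound, and 1 rose and 6 fell in diabetic marrow. The part of these cells in the Cd36 difference was not tested.

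Itgb3bp, a centromere protein that also binds the integrin beta-3 tail, and Ubl5, a ubiquitin-like protein of splicing, varied widely between pools. Itgb3bp was at 4.94 and 88.6 in nondiabetic marrow, 218 and 113 in diabetic marrow, 20.2 and 26.2 in nondiabetic wound, and 147 and 64.1 in diabetic wound. Ubl5 was at 29.0 and 17.7, 156 and 130, 7.32 and 15.9, and 11.9 and 105, so its wound pools overlapped. The Itgb3bp difference in marrow was 2.78 with all pools and 0.82 without nondiabetic marrow replicate 1, and the Ubl5 difference in wound was 1.64 and fell to 0.12 without diabetic wound replicate 2. Rpl21, a protein of the large ribosomal subunit, was at 16.2 and 16.0, 1.75 and 3.26, 13.8 and 10.4, and 3.28 and 2.84 over 321 bases of the gene. The search for copies found no other place for these bases at 85% identity over 50% of the length.

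Among genes lower in the diabetic mice, Ifi27l2a was at 64.2 and 61.7 FPKM in nondiabetic marrow, 13.1 and 14.3 in diabetic marrow, 49.1 and 52.7 in nondiabetic wound, and 17.4 and 16.7 in diabetic wound. It is an interferon-induced gene, and its span overlaps an exon of its neighbour Ifi27l2b. Of 25 other loci of an interferon-induced list, 23 fell in diabetic marrow and 25 in diabetic wound and none rose in either, with medians of -0.68 and -0.91. Over all loci, 24.2% fell in marrow and 22.4% in wound. Rsad2 (viperin), an antiviral enzyme, fell by 1.25 in marrow and 1.26 in wound, and Ifit1, which binds foreign RNA, by 1.04 and 1.00. A pair of GAAA runs with any 2 bases between them, the core of the element that interferon-activated factors bind, was looked for on both strands in the 250 bases before the annotated start. It was found for 9 of 27 genes of that list and for 754 of 22380 coding genes (3.37%), and not for Ifi27l2a. Of 28 genes named by the loci and listed with such a stretch, 2 (7.14%) had it, Orc2 and Zfp786, both named by loci higher in the diabetic mice.

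The row named Olfr56 has no strand and spans chr11:48757526-48883731, which holds exons of Tgtp1 and Tgtp2, interferon-induced GTPases, and of 9930111J21Rik1 and 9930111J21Rik2 besides 204 bases of the olfactory receptor gene. It was at 28.8 and 28.9 in nondiabetic marrow, 2.10 and 1.86 in diabetic marrow, 7.75 and 6.67 in nondiabetic wound, and 0.417 and 0.465 in diabetic wound. Of 10 loci from a list of interferon-induced GTPases, 6 fell and 2 rose in diabetic marrow, and 9 fell in diabetic wound. Over all loci, 24.2% fell and 17.3% rose in marrow, and 22.4% fell in wound. Which gene of the span the row reads cannot be told apart.

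The immunoglobulin loci were all lower in the diabetic mice. Ighg2c, the constant region of IgG2c, was at 132 and 143 in nondiabetic marrow, 43.4 and 46.3 in diabetic marrow, 2.12 and 1.85 in nondiabetic wound, and 0.050 and 0 in diabetic wound. A stronger row of the same span, named jointly for Ighg2c, Ighm and another segment, differed by -0.83 in marrow and -0.32 in wound. That row was at 115 and 116 in nondiabetic wound and 92.7 and 91.6 in diabetic wound. Igkv14-126, a light chain variable segment, was at 47.1 and 43.6, 3.56 and 3.47, 8.37 and 8.48, and 1.13 and 1.38. Heavy chain segments gave Ighv11-2 at 12.7 and 13.7, 1.18 and 1.72, 2.59 and 2.80, and 0.126 and 0.456, and Ighv8-5 at 3.46 and 3.03, 0.334 and 0.530, 4.50 and 4.62, and 0.980 and 0.352. Spans of these rows run over many segments of nearly the same sequence, so each level is uncertain. Markers of B and plasma cells (12 of 13 genes) summed to 104 and 118 in nondiabetic and 107 and 105 in diabetic marrow, and to 22.8 and 23.4 against 17.6 and 16.0 in wound. Within that list 8 of 11 loci rose and 2 fell in diabetic marrow, against 17.3% and 24.2% of all loci. Igj, the joining chain of secreted antibody, fell by 1.05 in marrow (adjusted p = 2.20e-04), against the direction of most of that list. Its difference in wound minus that in marrow was 1.16 (limma, adjusted p = 4.00e-04), so the fall was not matched in wound. Of the list, none rose and 2 fell in wound, against 23.8% and 22.4% of all loci.

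Skint3, a relative of the skin and thymus protein that selects epidermal T cells in mice, was at 4.64 and 5.24 in nondiabetic marrow and 1.85 and 2.12 in nondiabetic wound, and was listed at 0 in all 4 diabetic pools. On chromosome 4, where Lepr lies, 5 of the 44 loci were found. Itgb3bp lay 1.96 Mb from Lepr, Skint3 10.5 Mb, both Laptm5 loci 29.0 Mb and Gm16889 45.2 Mb. These 5 carry 4 names, as both Laptm5 loci have the same span. Chromosome 4 held 11.4% of the 44 loci and 6.17% of all loci considered, and chromosome 11 held the most, 9 loci or 20.5% against 8.45%. Chromosomes 5 and 17 held the same share as chromosome 4, 11.4% each against 6.3% and 5.1%. Chromosome 12 held 13.6% against 3.75%. None of the 44 came from chromosomes 3, 7, 13, 16, 18 or 19. The 12 loci left out by region, all on chromosome 17, and the 8 left out by name are not in these counts. The shares of all loci considered do include the places left out. The order of the chromosomes and the absences thus depend in part on the rule. Another locus within 500000 bases that moved by 1 or more in the same direction in both tissues was found for 9 of the 44 (20.5%), against 6.499% of all loci considered, among them the Camk2b and Nudcd3 loci and the immunoglobulin loci.

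Gene models and pseudogenes make up the rest. The noncoding 2610507I01Rik was at 81.3 and 86.2 in nondiabetic marrow, 0.681 and 0.860 in diabetic marrow, 2.10 and 2.41 in nondiabetic wound, and 0.0515 and 0.161 in diabetic wound. It was lower by 5.58 on the log2(FPKM + 1) scale in marrow, and its span overlaps Mrpl55 on the other strand. The row shared by Gm4694 and a small RNA model was at 21.0 and 19.4, 111 and 110, 16.8 and 17.6, and 92.5 and 95.9, nearly the same difference in marrow (2.40) as in wound (2.39). Gm14556, a pseudogene on the X chromosome, was at 1.57 and 1.41, 8.96 and 7.86, 13.7 and 16.0, and 51.7 and 49.5. Tmem181b-ps gave 2 loci, of which the longer was at 0.542 to 0.975 in the nondiabetic pools and 9.51 to 11.9 in the diabetic pools, and the shorter at 0 to 0.263 and 2.33 to 8.16.

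Other models rested on unstable estimates. Gm17082, which lies inside the gene Tm9sf2, was listed at 7308 to 9101 FPKM in the nondiabetic pools and 1600 to 3381 in the diabetic pools. Gm14418 was at 10.0 and 0 in nondiabetic marrow, 27.2 and 10.6 in diabetic marrow, 0 in both nondiabetic wound pools, and 32.2 and 110 in diabetic wound, and its difference in marrow was 2.45 with all pools and 0.72 without nondiabetic marrow replicate 2. In Gm16889 a single nondiabetic marrow pool was at 7683 and the other at 0, with 333 and 204 in diabetic marrow, 0 in both nondiabetic wound pools and 401 and 619 in diabetic wound. Gm8587 was above 0 in only 2 libraries, at 13.7 in a nondiabetic marrow pool and 5104 in a nondiabetic wound pool, and without either pool both genotypes of that tissue were at 0. Gm5662, on the same span of chromosome 12, was at 2.33 and 599 in the diabetic marrow pools and 0.782 and 145 in the diabetic wound pools, against 0.239 to 7.01 in the nondiabetic pools. In Gm8587 and Gm5662 a single pool decides the mean in each tissue. For Gm16889 this holds in marrow only. Without diabetic marrow replicate 2 the Gm5662 difference in marrow was -0.94 in place of 2.80, without diabetic wound replicate 2 that in wound was -0.59 in place of 2.58, and without nondiabetic marrow replicate 2 the Gm16889 difference in marrow was -4.88, and without replicate 1 it was 8.03, in place of 1.58.

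**Figure D4:**
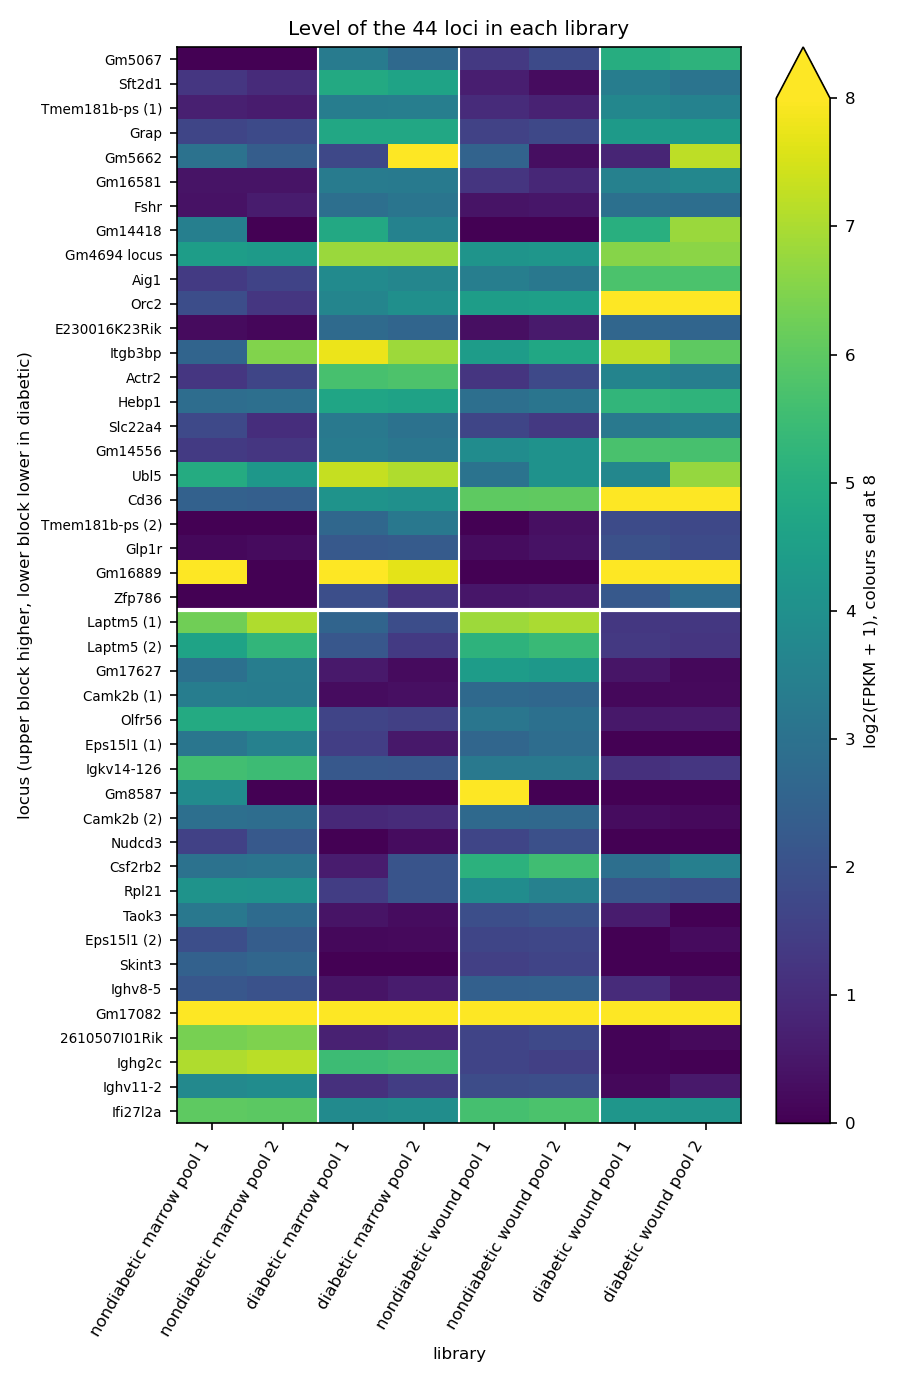
Level of the 44 loci (rows; higher in diabetic above the white line, lower below) in each of the 8 libraries (columns, 2 pools for each group) as log2(FPKM + 1), with colours ending at 8. Most rows change colour with the genotype in both tissues. Gm5662 and Gm8587 are bright in single pools, and Gm16889 in all diabetic pools and a single nondiabetic marrow pool.

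The difference between the tissues was not used by the rule, although a locus could meet the rule only if it was expressed in both tissues of a genotype. It was tested as wound minus marrow, averaged over the genotypes, in limma across all 18280 loci with Benjamini-Hochberg adjustment. Cd36, Orc2, Gm14556, Csf2rb2 and Aig1 rose most in wound, and Ighg2c, 2610507I01Rik, Igkv14-126, Olfr56 and Ighv11-2 fell most. Cd36 was higher in wound by 3.81 (SE 0.0300, adjusted p = 4.73e-09) and Orc2 by 3.75 (SE 0.150, adjusted p = 1.72e-06). Ighg2c was lower by 5.51 (SE 0.0478, adjusted p = 5.71e-09), and its 4 wound pools were at 0 to 2.12 FPKM against 43.4 to 143 in marrow. Gm14556 was higher by 2.56, Csf2rb2 by 2.06 and Aig1 by 1.90, and 2610507I01Rik was lower by 2.69, Igkv14-126 by 1.65, Olfr56 by 1.46 and Ighv11-2 by 1.43, all past the threshold.

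Of the 44 loci, 11 rose and 15 fell in wound, and 18 did not pass. Of all loci considered, 87.8% were called, 34.3% as higher and 53.5% as lower. The shares are not compared, since the rule required expression in both tissues and kept loci that vary widely between pools, such as Gm8587, Gm16889 and Gm5662. The median difference was -0.11 for the 44 and -0.35 for all loci. Of the 23 loci higher in diabetic mice, 9 rose and 5 fell in wound, and of the 21 lower loci 2 rose and 10 fell. Where a locus is near 0 in one genotype, the mean over genotypes understates its tissue difference. Actr2, for example, differed between wound and marrow by 0.03 in nondiabetic and by -2.20 in diabetic mice, and 2610507I01Rik by -4.70 and -0.68. The median of all loci moved from -0.35 to -0.11 with quantile scaling and to -0.01 with median-ratio scaling, so small tissue differences take their sign from the scaling. Grap and the Gm4694 row, lower in wound by 0.24 and 0.23, changed sign with it, while Ifi27l2a, at 0.00, became higher in wound.

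**Figure D5:**
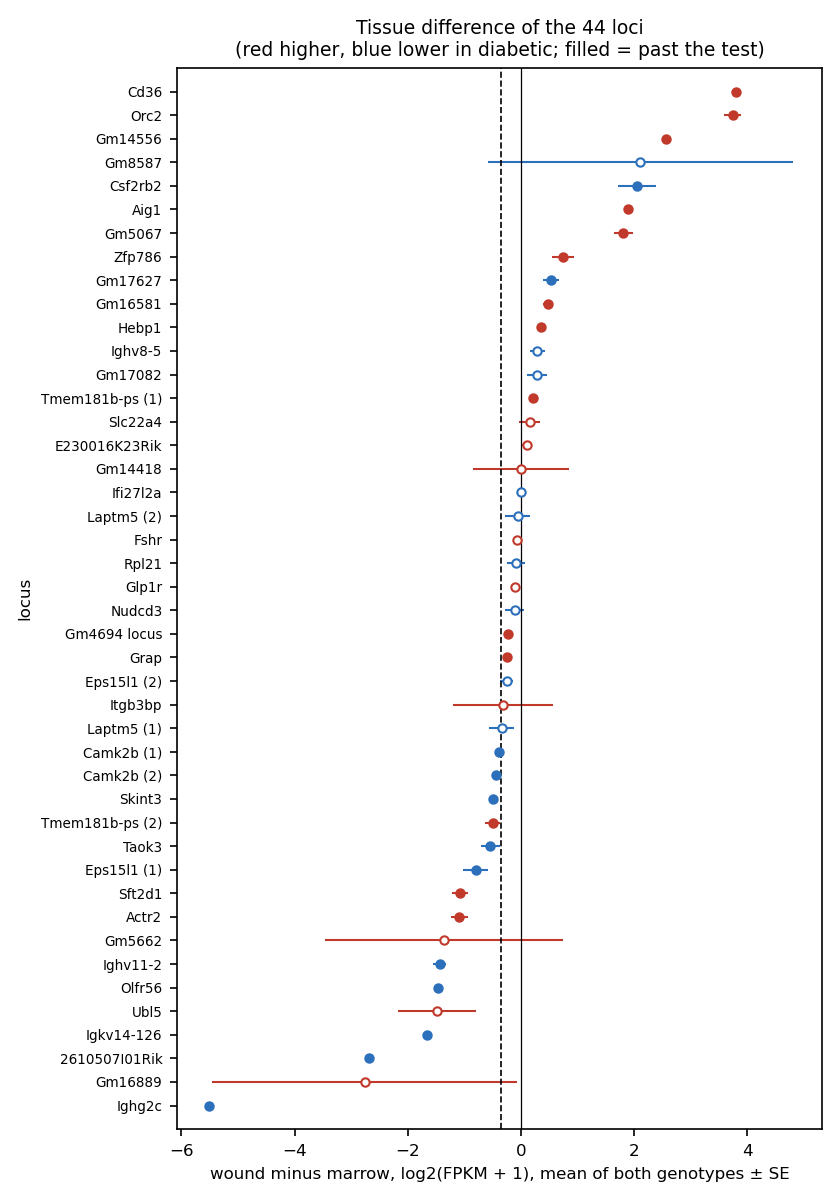
Wound minus marrow difference of the 44 loci in log2(FPKM + 1), averaged over the genotypes, with the standard error of the fit; red loci were higher and blue lower in diabetic mice, and filled points passed the test. The dashed line marks the median of all loci at -0.35; Cd36 stands at 3.81 and Ighg2c at -5.51.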

How the data were processed

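RNA of 8 libraries had been sequenced from Gr-1+ cells, 1 lane each. The deposited values are FPKM, and the submitters' processing notes name TopHat, Cufflinks and the mm9 genome; versions, settings and the treatment of reads with several places are not given in the sources used here. Only FPKM were used, so the depth is unknown and no counting error is given; read numbers were not recovered, as transcript lengths were not given. No other scaling was applied.

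The 44 loci and the gene lists were chosen with earlier results of these data known. Loci were named as the 15 with the largest smaller difference in each direction, those within 1 Mb of another, those on a list, the edges and the 5 largest tissue differences; Slc22a4, Ubl5, the short Tmem181b-ps locus, Glp1r, Gm16889, Zfp786, Gm17082 and the genes of the lists were named after their values were seen. Tests used limma 3.58.1 in R 4.3.3 on log2(FPKM + 1) with a mean for each of the 4 groups, trend = TRUE and Benjamini-Hochberg adjustment over 18280 loci. P-values measure the spread between pools. The fit was tested on simulated data. Copies were sought with blastn 2.17.0 in NCBIM37, whose chromosome lengths hold all positions of the table, and exons come from GENCODE M1. Alternatives covered pseudocount, filters, scaling, locus length, the size, 1 row for each name, single pools, the trend, a robust fit and blocks; the closing section gives their effect. Figures were drawn with matplotlib 3.10.9.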

Additional observations from a re-analysis of the deposited data

Results flagged for a closer look

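Genotype differences of 5 genes named beside the loci themselves differed between the tissues by a test of the difference (limma, adjusted over 18280 loci; the value is the wound difference minus that of marrow on the log2(FPKM + 1) scale). The value was -0.94 for Srrm2 (adjusted p = 2.74e-04), -0.29 for Fam32a (adjusted p = 0.0158), 1.16 for Igj (adjusted p = 4.00e-04), 0.94 for Fabp4 (adjusted p = 0.00290) and -2.95 for Lpl (adjusted p = 2.62e-05). For the 44 loci this difference was not tested, since the rule used its terms.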

How the results depend on the processing

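The number of loci the rule finds depends on its settings. From 44 it became 197 with a pseudocount of 0.1, 7 with 5, 77 with loci of any length, 135 with a minimum size of 1, and 21 with a minimum of 2; leaving out loci without strand, chosen after seeing the data, kept 24. Without single pools it ranged from 39 to 47. Grap and the Gm4694 row were found in all 16 of the settings that changed the pseudocount, filter, scaling, locus length or naming or left out a pool. The tissue calls (26) became 28 with quantile and 30 with median-ratio scaling. The called loci of the lists of genes by function, which leave out the cell type markers and the 44 loci, numbered 127 in each tissue. They became 119 in marrow and 131 in wound with quantile scaling, and 131 in each with median-ratio scaling. Over all loci, 41.4% were called in marrow and 46.2% in wound.

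Directions reversed for the tissue difference of Grap (0.00197 with quantile and 0.14 with median-ratio scaling), Ifi27l2a (0.45 and 0.44), the Gm4694 row (0.18 and 0.22) and Fshr (0.21 with median-ratio scaling), and for genotype differences that ranged, without single pools, from -0.94 to 6.55 in marrow and -0.59 to 5.76 in wound for Gm5662 and from -4.88 to 8.03 in marrow for Gm16889; apart from the pool left out, the cause was not tested. Among the other single results, 13 tissue differences no longer passed and 17 newly passed under some setting, of 859 compared.

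The labels give pool numbers in each group but do not say that a number marks the same mice, and the differences between pools 1 and 2 correlated at -0.22 to 0.17 over the 6 pairs of groups, so the samples share only a number. With pool number as a replicate block the tissue calls numbered 27 and the list calls 128 in marrow and 122 in wound; a block for each numbered set of mice within a genotype, added after seeing the data, gave 27. With 2 pools in a group and no depth, differences at low FPKM are the least certain.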

Other observations

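Rows without a gene name were not part of the rule. Of 3053 such rows that passed the same filters, 38 met the size of 1.5 in the same direction in both tissues.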
